A study of Mus musculus with 12 samples.

Results

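The genes described here are the immediate-early genes Fos, Fosb, Jun, Junb, Egr1, Atf3, Ier2, Ier3, Nr4a1 and Dusp1, chosen by name. All 10 were found in both deposited tables, among 25655 genes in each. Immediate-early genes are switched on within minutes of a stimulus, without new protein synthesis, by transcription factors such as CREB and SRF that are already present in the cell. Most of them encode transcription factors, and their mRNAs are short-lived. Fos and Jun proteins pair through leucine zippers to form the AP-1 factor, and the phosphatase encoded by Dusp1 switches off the MAP kinases that induce the group. The same genes are known to be induced when tissue is digested into single cells for sorting, so in sorted cells their level may carry both the state of the tissue and the handling.

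The samples were PDGFRα+ mesenchymal cells of mouse skeletal muscle or bone, isolated by sorting and read by 3' mRNA sequencing, with 12 samples in 4 groups of 3. The sort kept cells labelled PDGFRα+ and negative for CD45 and CD31 in both tissues, and negative for Vcam1 as well in muscle. All 6 knockout samples carried PDGFRα-CreER, a tamoxifen-inducible Cre driven by the Pdgfra locus or promoter, and 2 floxed alleles of Esr1, the gene of estrogen receptor alpha. Among the muscle controls, replicates 1 and 2 carried PDGFRα-CreER alone and replicate 3 carried it with 1 floxed Esr1 allele. Among the bone controls, replicate 1 carried 2 floxed Esr1 alleles without the Cre, and replicates 2 and 3 carried PDGFRα-CreER alone. The series title speaks of female mice. Age, tamoxifen dosing, digestion times and whether replicates were separate animals are not stated in the labels, so p-values measure only the spread between these samples, which may be technical. The study asked which genes of muscle PDGFRα+ cells respond to loss of Esr1.

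The columns of single libraries are headed by codes found in no label, so values per sample, their spread and the depth of each sample are not given here. What each table gives is the authors' log2 fold change of knockout over control, their p and false discovery rate (FDR), and the larger of the knockout and the control mean, called the maximum group mean here, whose unit the header does not name. The labels were checked against their defining genes. Esr1 did not pass in either tissue, at 1.02 on the log2 scale in muscle (FDR = 1.00) and -2.69 in bone (FDR = 0.440) per the authors' deposited tables. Esr1 was thus listed higher in the muscle knockout, the opposite sign to a loss of its mRNA, and lower in the bone knockout. Its maximum group means were 45.6 in muscle and 75.9 in bone. A 3' tag need not lie in the deleted part of the gene, and neither the place of the tags nor the extent of deletion was tested. Pdgfra had a maximum group mean of 493.5 in the muscle table and 8.60 in the bone table. The 4 globin genes held 58.4% of the summed maximum group means of the bone table and 0.338% of the muscle table.

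The stretch just upstream of the transcript start is where CREB binds many genes of this kind, at the palindromic cyclic AMP response element (CRE), written TGACGTCA, or at its half-site. RefSeq upstream windows on GRCm38.p6 were found for 8 of the 10 genes. Egr1 and Ier2 had none in the table used. The half-site TGACG, searched on both strands (CGTCA on the other), was present in the 250 bases upstream of 6 of the 8, against 17.8% of all 32851 windows of that length. The full CRE was found in 1 of the 8, against 1.55% of all windows. All 8 windows held more G and C, 54.4% to 74.4%, than the median of all windows, 52.4%. The shares of all windows were not matched for this content. A match is only a run of letters and does not show that a factor binds. The 4 windows below are shown because they cover the range of arrangements, from a full CRE in Dusp1 to 4 half-sites in Nr4a1. Capitals mark the half-sites on either strand, and each window runs 5′ to 3′ to the base before the RefSeq start.
Fos: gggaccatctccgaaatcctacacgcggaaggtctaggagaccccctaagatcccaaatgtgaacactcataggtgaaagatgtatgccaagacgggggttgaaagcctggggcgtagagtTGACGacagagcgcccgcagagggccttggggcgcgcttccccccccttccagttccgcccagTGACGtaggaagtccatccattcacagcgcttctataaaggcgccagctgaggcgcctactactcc
Atf3: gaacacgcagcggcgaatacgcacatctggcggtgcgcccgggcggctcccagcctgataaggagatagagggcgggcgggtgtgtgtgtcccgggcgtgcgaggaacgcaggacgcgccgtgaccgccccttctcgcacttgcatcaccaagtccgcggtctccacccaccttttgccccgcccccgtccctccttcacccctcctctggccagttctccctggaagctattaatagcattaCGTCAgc
Nr4a1: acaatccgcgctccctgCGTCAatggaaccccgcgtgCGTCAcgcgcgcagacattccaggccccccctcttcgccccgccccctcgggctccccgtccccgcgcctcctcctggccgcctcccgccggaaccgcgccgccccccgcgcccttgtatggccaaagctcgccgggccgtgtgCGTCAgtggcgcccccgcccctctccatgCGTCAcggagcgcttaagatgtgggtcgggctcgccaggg
Dusp1: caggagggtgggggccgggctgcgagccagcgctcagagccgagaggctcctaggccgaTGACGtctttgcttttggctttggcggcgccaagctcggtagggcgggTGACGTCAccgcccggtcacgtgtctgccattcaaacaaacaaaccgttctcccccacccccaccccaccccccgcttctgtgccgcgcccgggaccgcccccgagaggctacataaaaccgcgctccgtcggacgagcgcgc

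These windows lie at chr12:85473640-85473889 (plus strand, Fos), chr1:191183334-191183583 (minus strand, Atf3), chr15:101266596-101266845 (plus strand, Nr4a1) and chr17:26508473-26508722 (minus strand, Dusp1). In Atf3, Nr4a1 and Dusp1 the GENCODE gene starts further upstream than the RefSeq start used here. Fos has 2 half-sites, the nearer of which, from -66 to -61, extends to the 6 letters TGACGT. Atf3 has 1 half-site at the very end of its window, in the core ACGTCA from -8 to -3. Nr4a1 has 4 half-sites, each within TGCGTCA, a variant found in 1.75% of all windows, and in the Fosb window too, when both strands are searched. Dusp1 has the full CRE from -143 to -136, which counts as 2 overlapping half-sites, and a further half-site upstream of it.

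Of the windows not printed, Fosb, at chr7:19310046-19310295 on the minus strand, and Junb, at chr8:84978749-84978998 on the minus strand, had 1 half-site each, as Atf3 did. That of Fosb lies within TGACGCA, from -60 to -54, the other strand's form of the variant in Nr4a1. Jun and Ier3 had no half-site. GC boxes (GGGCGG or CCGCCC) were found in 7 of the 8 windows, against 32.7% of all windows, and Junb was the one without. That share too was not matched for the higher G and C content of the 8 windows, so no trait of the members is read from it. None of the 8 held either AP-1 word searched (TGACTCA or TGAGTCA, 4.46% of all windows). Nor did any hold a CArG box, which is the SRF site (1.47%), or a full estrogen response element (0.0639%). Variants of the AP-1 words were not searched, so AP-1 sites of other spelling may be present. The Jun window, for example, holds TGACATCA, which was not among the words searched. These windows are short, and elements further upstream were not searched.

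**Figure D1:**
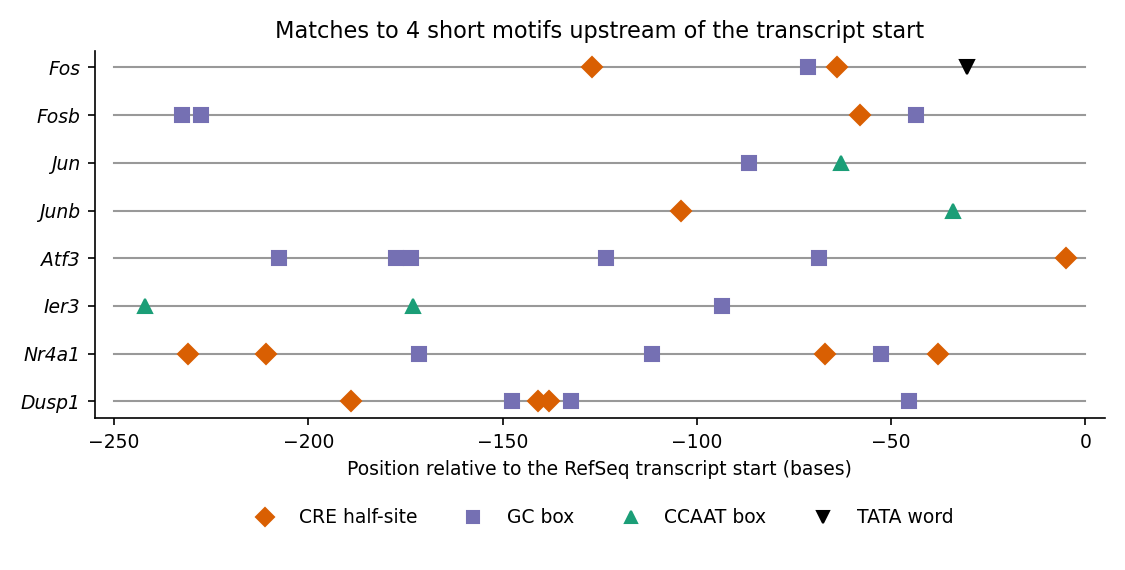
Positions of matches to 4 short motifs in the 250 bases upstream of the RefSeq transcript start of 8 immediate-early genes. The horizontal axis is the distance from the start in bases, each line is a gene and each symbol a match on either strand. CRE half-sites lie on 6 of the 8 lines, and the CRE of Dusp1 shows as a pair of touching diamonds.

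Most members were short genes. The median gene length of the members was 4698 bp, against 23530 bp over 14002 coding genes tested in at least 1 tissue (GENCODE M21), and 3 of the 10, Jun, Junb and Ier2, had a coding transcript of 1 exon. Of the 10, 7 were under 10 kb, while Dusp1, at 56539 bp, and Atf3, at 47744 bp, were longer than the median of all genes. The coding transcripts had a median of 2049 nt against 3033.5 nt, and those of Egr1, Fosb and Jun were longer than the latter, at 4484, 3782 and 3189 nt. By the median, their 3' untranslated regions, which 3' libraries read, were rich in the pentamer ATTTA, the core of the AU-rich elements that speed mRNA decay. The median was 3.68 per kb in the members against 1.34 per kb over the tested coding genes with a 3' untranslated region. Ier3 had the most per kb, 8.16, while Fosb, at 0.466, lay below the median of the tested genes and Ier2 had none. The nonamer TTATTTATT was found in 2 members, Fos and Dusp1, and in 7.96% of the tested genes. Fos has 1 such nonamer and Dusp1 has 2. The first in each gene is printed because the nonamer is the longest AU-rich word searched, with the nonamer in capitals and T for U.
Fos: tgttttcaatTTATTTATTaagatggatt
Dusp1: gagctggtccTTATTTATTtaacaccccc

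In neither tissue did an immediate-early gene pass the authors' test. At an FDR under 0.05, 0 of the 10 members were called in muscle, where 0.127% of 7107 genes were called, and 0 of 10 in bone, where 0.0352% of 8534 genes were called. At an FDR under 0.1 the muscle count was again 0 of 10, against 0.183% of genes. At an unadjusted p under 0.05, 0 of 10 members passed in muscle, against 11.7% of 13158 genes, and 0 of 10 in bone, against 33.0% of 10518 genes. That bone share was far smaller away from weakly expressed genes. When only genes whose maximum group mean reached 50 were kept, a limit that all 10 members met in both tables, 6.45% passed in muscle and 7.92% in bone. To give each fold change an error, a standard error (SE) and a 95% interval were back-calculated by treating the deposited p as a two-sided normal p. All 10 intervals held 0 in each tissue. By this construction that only restates that no member had an unadjusted p under 0.05.

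Within muscle, the largest deposited differences were in Jun and Atf3, both with a negative sign, and in Egr1 and Nr4a1, of opposite signs. No deposited difference of a member in muscle exceeded 1.59-fold. The SE had a median of 0.32, and for 6 of the 10 genes the whole interval lay within 2-fold in either direction (1 on the log2 scale). These were Fos, Fosb, Junb, Ier2, Ier3 and Dusp1. In bone the SE had a median of 1.09, and no gene had an interval that narrow. The intervals thus bound the change in muscle far more closely than in bone.

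**Figure D2:**
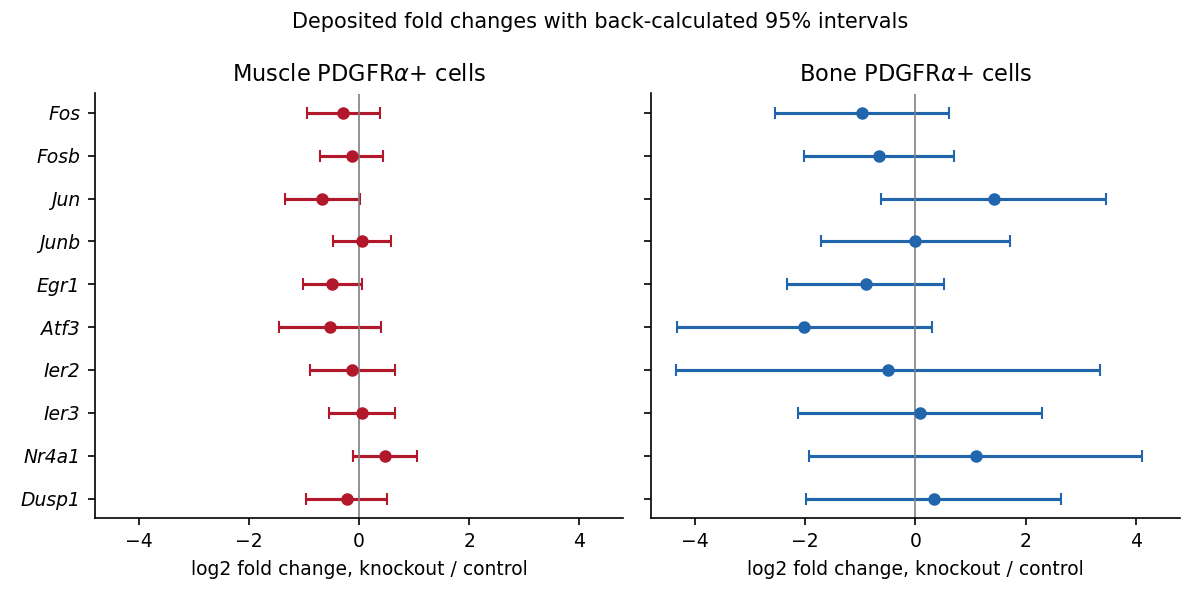
Deposited log2 fold change of knockout over control (points) with the back-calculated 95% interval (bars) for each gene, in muscle (left) and bone (right). All 20 intervals cross 0; those of muscle reach from -1.45 to 1.06 and those of bone from -4.34 to 4.11.

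Fos and Fosb encode the Fos partners of AP-1. Fos (ENSMUSG00000021250, GRCm38 chromosome 12, 85473890 to 85477273, plus strand) stood at -0.29 in muscle on the log2 scale of fold changes per the authors' deposited table (SE 0.34, p = 0.392, FDR = 1.00). For Fos the bone value per the authors' deposited table was -0.96 (SE 0.81, p = 0.232, FDR = 0.422). Fos was thus listed lower in the knockout in both tissues, and both intervals held 0. Fosb (ENSMUSG00000003545, chromosome 7, 19302696 to 19310051, minus strand) had -0.14 in muscle per the authors' deposited table (SE 0.29, p = 0.645) and -0.66 in bone (SE 0.69, p = 0.341). Fosb had the highest maximum group mean of the 10 in the bone table, 787.7 per the authors' deposited table, and the smallest SE there.

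Jun and Junb encode the Jun partners, Jun a strong and Junb a weaker activator. Jun (ENSMUSG00000052684, chromosome 4, 95049034 to 95052222, minus strand) had the smallest p of the members in muscle. Its log2 fold change there was -0.67, or 1.59-fold lower in the knockout, per the authors' deposited table (SE 0.35, interval -1.35 to 0.01, p = 0.0547, FDR = 0.851). By p, 12.6% of all tested muscle genes ranked before Jun per the authors' deposited table. In bone the sign of Jun was the opposite, with 1.43 per the authors' deposited table (SE 1.04, interval -0.61 to 3.46, p = 0.171, FDR = 0.329). Junb (ENSMUSG00000052837, chromosome 8, 84974484 to 84978718, minus strand) had 0.06 in muscle (SE 0.27, p = 0.832) and 0.00 in bone (SE 0.87, p = 0.998) per the authors' deposited tables. Junb thus had an estimate near 0 in both, with a 95% interval of -0.47 to 0.58 in muscle and -1.71 to 1.71 in bone. In the files' own coordinates Junb overlaps Prdx2, a peroxiredoxin gene on the opposite strand, over 351 bp. In the authors' deposited table Prdx2 had a maximum group mean of 1053 in bone, above that of Junb at 243.3. Whether counting used strand is not stated, so the bone value of Junb is uncertain.

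Atf3 encodes a stress-induced partner of Jun proteins that often represses its targets. Atf3 (ENSMUSG00000026628, chromosome 1, 191170296 to 191218039, minus strand) had the largest bone difference of the members, -2.02, or 4.05-fold lower in the knockout, per the authors' deposited table (SE 1.18, interval -4.33 to 0.30, p = 0.0874, FDR = 0.186). That was also the smallest p of the 10 in bone, but 40.6% of all tested bone genes had a smaller one per the authors' deposited table. In muscle Atf3 had -0.53 per the authors' deposited table (SE 0.47, p = 0.260, FDR = 1.00). The sign was the same in both tissues and neither difference passed.

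Egr1, a zinc-finger factor that serum and mechanical load induce, and Nr4a1, an orphan nuclear receptor also known as Nur77, had opposite signs. Egr1 (ENSMUSG00000038418, chromosome 18, 34859823 to 34864984, plus strand) had -0.48 in muscle per the authors' deposited table (SE 0.27, interval -1.02 to 0.05, p = 0.0784, FDR = 0.936). In bone Egr1 had -0.90 per the authors' deposited table (SE 0.73, p = 0.215, FDR = 0.397). Its maximum group mean was the highest of the 10 in muscle, and in bone only that of Fosb was above it. Nr4a1 (ENSMUSG00000023034, chromosome 15, 101254269 to 101274795, plus strand) had 0.48 in muscle per the authors' deposited table (SE 0.30, interval -0.10 to 1.06, p = 0.107, FDR = 1.00), the largest positive value of the members there. In bone Nr4a1 had 1.10 per the authors' deposited table (SE 1.54, p = 0.477, FDR = 0.704). Its bone maximum group mean was 77.2, one of the 2 lowest of the members, and its interval was correspondingly wide, from -1.92 to 4.11.

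Ier2 and Ier3 encode small proteins, Ier2 a nuclear regulator and Ier3 a regulator of apoptosis. Ier2 (ENSMUSG00000053560, chromosome 8, 84661331 to 84662852, minus strand) had -0.12 in muscle (SE 0.39, p = 0.753) and -0.49 in bone (SE 1.96, p = 0.801) per the authors' deposited tables. Ier2 had the lowest maximum group mean of the 10 in each table and the largest SE in bone. Ier3 (ENSMUSG00000003541, chromosome 17, 35821684 to 35822923, plus strand) had 0.05 in muscle (SE 0.30, p = 0.877) and 0.09 in bone (SE 1.13, p = 0.936) per the authors' deposited tables. Both estimates of Ier3 were near 0.

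Dusp1 encodes the nuclear phosphatase that inactivates p38, JNK and ERK. Dusp1 (ENSMUSG00000024190, chromosome 17, 26505590 to 26562128, minus strand) had -0.23 in muscle (SE 0.37, p = 0.547) and 0.33 in bone (SE 1.18, p = 0.779) per the authors' deposited tables. In the files' own coordinates its gene model overlaps Ergic1, on the opposite strand, over 640 bp. Ergic1 was weakly expressed beside it, with a maximum group mean of 61.0 in muscle and 5.57 in bone per the authors' deposited tables. Of the 10, Dusp1 and Jun were those whose sign differed between the tissues.

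Signs were counted over the group beside those of all genes. In muscle 7 of the 10 members had a negative fold change, with a median of -0.18, against 46.5% of 13158 genes and a median of 0.12 per the authors' deposited table. In bone 5 of the 10 were negative, with a median of -0.25, against 30.3% of 10518 genes and a median of 2.51 per the authors' deposited table. When only genes whose maximum group mean reached 50 were kept, the median was 0.00 in muscle and -0.20 in bone per the authors' deposited tables, with 1576 of 3149 and 922 of 1653 genes negative. Beside these genes of like level, the members' bone median and count of signs lay close to those of all genes.

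**Figure D3:**
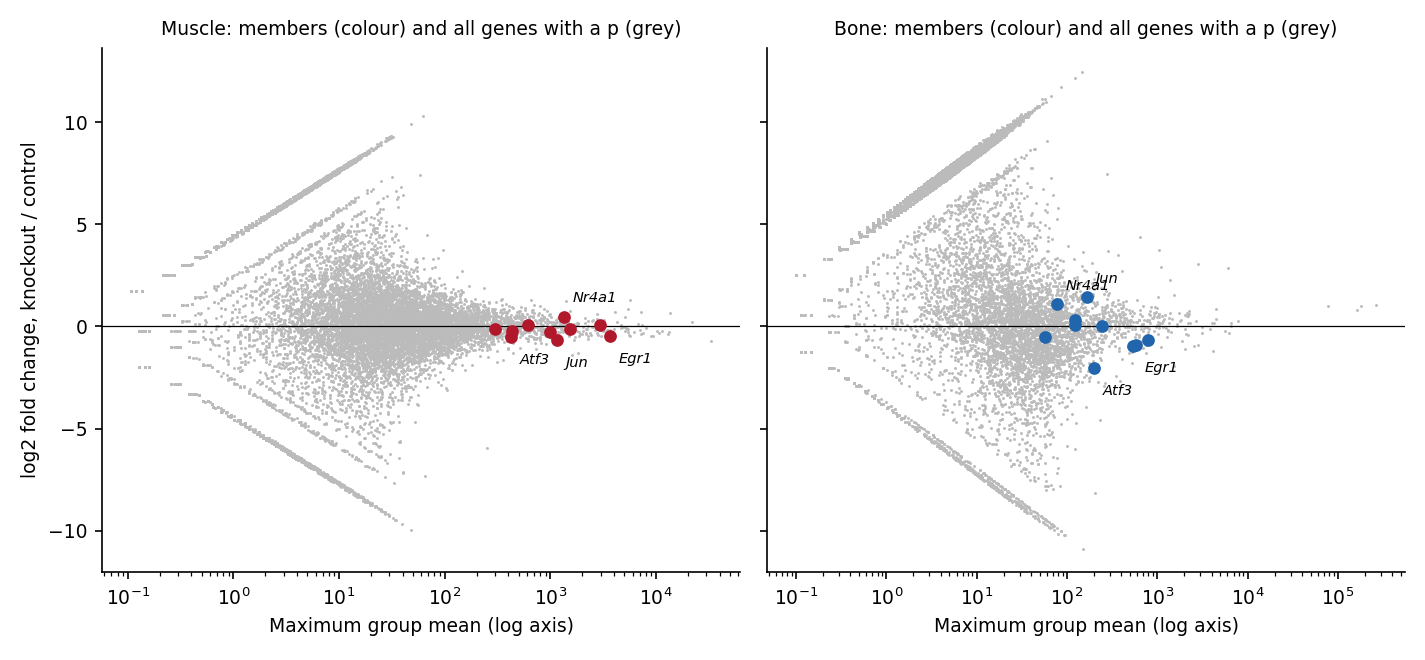
Deposited log2 fold change of knockout over control against the maximum group mean (log axis) for every gene with a p (grey) and the 10 immediate-early genes (colour), in muscle (left) and bone (right). The members lie among the genes of higher level, at 299.8 to 3706 in muscle and 56.7 to 787.7 in bone, where grey points spread less than at low level; Jun, Nr4a1, Atf3 and Egr1 are named.

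The immediate-early genes were abundant in both tables. Their maximum group means ran from 299.8 for Ier2 to 3706 for Egr1 in muscle per the authors' deposited table, with Junb at 2943, Fosb at 1524, Nr4a1 at 1355, Jun at 1150 and Fos at 996.5. By this value the members ranked between 37 and 538 among 25655 genes in muscle and between 95 and 1444 in bone, on a scale whose length correction is not stated. In bone the authors' deposited table gave Fosb 787.7, Egr1 588.3, Fos 537.1, Junb 243.3, Atf3 201.1, Jun 165.9, Ier3 123.5, Dusp1 122.0, Nr4a1 77.2 and Ier2 56.7. The spread of these levels over samples is not given here, so no order among neighbours is claimed.

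Set side by side, every member had a larger maximum group mean in the muscle table than in the bone table. So did 74.7% of the 9598 genes listed above 0 in both tables, and 81.0% of the 1129 genes whose maximum group mean reached 50 in both, so nothing particular to the members is read from this count. The 2 tables were not tested against each other, since the sources used here do not say how each was normalized. The ratio of muscle to bone had a median of 5.13 over the members, against 1.93 over those 1129 genes and 2.68 over the 9598, and was smallest for Fos, Fosb and Atf3, at 1.86, 1.94 and 2.11. It was largest for Nr4a1, at 17.5, and Junb, at 12.1. The members together held 1.17% of the summed maximum group means in muscle and 0.248% in bone. With the 4 globin genes left out of the sums, these shares were 1.17% and 0.595%, so part of the gap went with the globin share of the bone table. Fewer cells of a type and less RNA per cell cannot be told apart in such bulk samples.

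**Figure D4:**
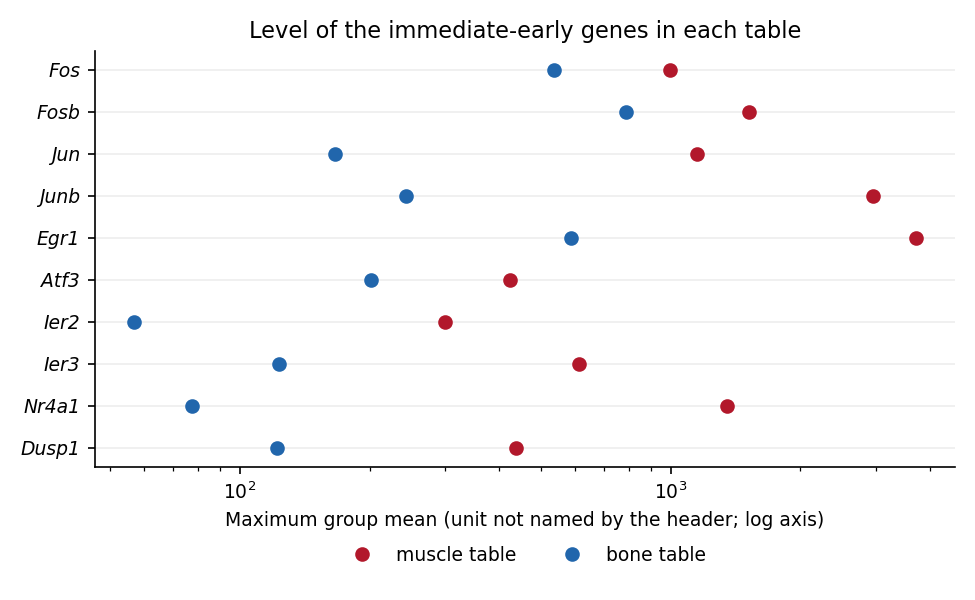
Maximum group mean (log axis, unit not named by the header) of each immediate-early gene in the muscle table (red) and the bone table (blue). Every red point lies to the right of its blue point, as for 81.0% of all genes that reached 50 in both tables; the gap is smallest for Fos, at 996.5 against 537.1, and largest for Nr4a1, at 1355 against 77.2.

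The effect of the knockout was compared between the tissues gene by gene, as the muscle log2 fold change minus that of bone, with a normal approximation from the back-calculated SEs. No member differed at an adjusted p under 0.05 (0 of 10, where 0% of 9598 genes with a p in both tables did), and 0 of 10 had an unadjusted p under 0.05, against 24.6% of the 9598 genes. Only 1129 of the 9598 reached a maximum group mean of 50 in both tables, as all 10 members did. The share among those 1129 is not given here, so nothing particular to the members is read from the 24.6%. Computed from the authors' deposited p-values, the difference of Jun came closest, at -2.09 (SE 1.10, interval -4.24 to 0.06, p = 0.0565, adjusted p = 0.218). The other members had an SE of 0.75 or more, so opposite or like responses of the tissues could not be resolved at this precision.

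Related genes were not called in muscle either, where 0.127% of 7107 genes were called at an FDR under 0.05. At that share a count of 0 in a short list, here or below, is not read as a result about the list. Of 16 other AP-1, ATF and Maf family genes, 13 had an FDR in muscle and none was called, with a median log2 fold change of -0.02 over 15 genes with a p. The smallest p belonged to Fosl1, another Fos partner, with 1.61 per the authors' deposited table (p = 0.0708, FDR = 0.910). Of 42 other early response genes, 41 had an FDR in muscle and none was called, with a median of -0.05. Id2, an inhibitor of helix-loop-helix factors, had -1.29 per the authors' deposited table (p = 6.82e-04, FDR = 0.171). Ier5l had -2.52 (p = 0.00906, FDR = 0.388) and Ptgs2, the inducible prostaglandin synthase, had 0.71 (p = 0.0513, FDR = 0.824) per the authors' deposited table. Ptgs2 and Id2 stood at maximum group means of 493.8 and 440.8, near those of Dusp1 and Atf3.

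None of the regulators of the pathway was called in muscle, where the share over all genes was 0.127%. None of 5 other Dusp genes with an FDR passed, and none of 20 genes of the SRF, CREB and MAP kinase list did, of 25 listed. Elk1, an SRF partner, had 3.97 (p = 0.0259, FDR = 0.644) per the authors' deposited table, and its maximum group mean there was 29.5. Crem, which encodes CREB-related activators and repressors, had -1.30 (p = 0.0704, FDR = 0.910) per the authors' deposited table. Their list's median was -0.20 over 25 genes, close to that of the members.

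Heat shock genes, which tissue digestion is also known to induce, were counted beside the members. Of 15, none was called in muscle, against 0.127% of 7107 genes. A negative value was listed for 11, against 46.5% of all genes with a p, and the median was -0.31 per the authors' deposited table. Hspe1, a mitochondrial chaperonin, had -0.67 (p = 0.0960) and Dnaja1 -0.53 (p = 0.167) per the authors' deposited table. Hspa1b, an inducible Hsp70 gene, had 0.59 per the authors' deposited table (p = 0.175). Of 6 glucocorticoid response genes none was called, and Mt2 had -0.70 (p = 0.0202, FDR = 0.584) and Tsc22d3 -1.47 (p = 0.0252, FDR = 0.635) per the authors' deposited table. The part of handling in the members' values was not tested.

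In bone the related lists held no call at an FDR under 0.05, where 0.0352% of 8534 genes were called. Their fold changes were spread far more widely than those of the members. The medians were 1.11 for other AP-1, ATF and Maf genes, 0.51 for other early response genes, 0.44 for the SRF, CREB and MAP kinase list, 0.58 for heat shock genes and 0.78 for glucocorticoid response genes, each below the 2.51 of all genes per the authors' deposited table. Other Dusp genes had a median of 3.43 over 7 genes. At an FDR under 0.1, 32.2% of all bone genes were called, and 0 of the 10 members were. Among genes whose maximum group mean reached 50, as it did for all 10 members, only 7.92% had an unadjusted p under 0.05. Nothing particular to the members is therefore read from their count. At an FDR under 0.1, 6 of 39 other early response genes were called higher and none lower. They included Nfkbiz, an inducible NF-kappaB regulator, and Id1, at maximum group means of only 14.5 and 9.73 per the authors' deposited table. Batf, an AP-1 family gene of lymphocytes, had a negative fold change at 48.2 (FDR = 0.0784) per the authors' deposited table. Fold changes of such genes, which lie along the straight outer edges of the plot of all genes, may be fitted against a group at or near 0 and are given no size here.

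Markers of other cell types are given beside these values, since AP-1 and early response genes are also high in blood cells. In bone 12 of 12 neutrophil genes had a positive value, 1 of them called (Ltf), with a median log2 fold change of 3.70 per the authors' deposited table and maximum group means of 4.76 to 6106. Of 11 macrophage genes 9 were positive, with a median of 3.12, at 5.93 to 1399. Of 7 erythroid genes 6 were positive, with a median of 0.82, and their maximum group means reached 263063. None of the endothelial genes with a p in bone (2 of 7) passed and 5 were listed at 0. Of 13 stromal genes in bone, 9 were positive, with a median of 0.49. Over all bone genes with a p, 7331 of 10518 were positive, with a median of 2.51. Among those whose maximum group mean reached 50, 731 of 1653 were, with a median of -0.20. Nothing particular to the macrophage or stromal genes is therefore read from their counts. The part of blood cells in the bone values of the members was not tested.

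Muscle held little of these transcripts. The 12 neutrophil genes had maximum group means of at most 17.3, 4 of them at 0, and the 11 macrophage genes at most 61.4 per the authors' deposited table. Of 7 endothelial genes 3 were positive and the highest stood at 22.0. Erythroid genes reached 1607, with 5 of 6 negative and a median of -0.82. The 13 stromal genes reached 13437, with 12 positive, a median of 0.59 and 1 called (Col1a2). Over all muscle genes with a p, 7043 of 13158 were positive, with a median of 0.12. Stromal genes thus leaned higher and erythroid genes lower in the knockout of the table in which 7 of 10 immediate-early genes leaned lower. Their part in the members' values was not tested.

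By the annotation in the deposited tables, 8 of the 10 members, all but Ier3 and Dusp1, were annotated to positive regulation of transcription by RNA polymerase II, as were 5.82% of 20233 annotated genes. Fos, Fosb, Jun and Junb shared the cellular response to calcium ion (0.386% of annotated genes), and Atf3, Egr1, Fos and Nr4a1 shared skeletal muscle cell differentiation (0.282%). Dusp1 and Ier3 shared with Jun the negative regulation of apoptosis (2.65%). Dusp1 and Jun were also annotated, with Nr4a1, to its positive regulation (1.83%). The 4 genes of the calcium term had muscle fold changes from -0.67 to 0.06 on the log2 scale, and the 4 of the muscle term from -0.53 to 0.48. Neither annotation therefore set apart genes with 1 sign.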

How the data were processed

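Sequencing libraries were QuantSeq 3' mRNA-seq, per the labels' protocols. GRCm38 and mm10 are the builds in the submitters' processing notes. Not given in the sources used here are the aligner, the counter, the normalization and the test. Each tissue has 1 table. The log2 fold changes, the p-values, the FDR and Bonferroni p-values are the authors', per the file headers. The maximum group mean, the larger of a gene's knockout and control means, is a score in the deposited tables without a named unit. The fold change column was read only to check the log base.

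The tables hold 48 further columns, 4 measures of 12 libraries, whose codes match no label. They were not used, so the planned count test, values per replicate, depth and a replicate spread are not given. The authors' comparison was used in its place, with a gene called at their FDR under 0.05.

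Standard errors, 95% intervals and the test between tissues treat the deposited p as a two-sided normal p, with Benjamini-Hochberg adjustment over all genes with a p in both tables. A two-sided normal p is an assumption, since the authors' test is not named. The script was tested on simulated data with normal errors, which does not test that assumption. Genes were placed on GRCm38 through GENCODE M21 by Ensembl identifier, because the coordinates in the files were identical to it for only 564 of 25600 matched genes (2.20%). One coding transcript per gene, the APPRIS principal with the longest 3' untranslated region, was used. Python 3.11.15, pandas 2.3.3 and SciPy 1.17.1 were used.

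The rule for named genes was all 10 members, up to 3 genes of smallest p of each related list, and Esr1 and Pdgfra. Members and lists were chosen with earlier results of these data known. Mural, muscle and B cell marker lists were also counted. In muscle 4 of 6 mural, 4 of 9 muscle and 0 of 2 B cell genes with a p were positive, and in bone 2 of 3, 4 of 6 and 3 of 3. Over all genes with a p, 7043 of 13158 were positive in muscle and 7331 of 10518 in bone.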

Additional observations from a re-analysis of the deposited data

How the results depend on the processing

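No immediate-early gene was called in either tissue, or differed between the tissues, under any alternative run: an FDR under 0.1, an unadjusted p under 0.05, a Bonferroni p under 0.05, adjustment over all genes with a p, and keeping only genes whose maximum group mean reached 50 (the last only, for the difference between tissues). Across 90 values of single members the lowest p or adjusted p was 0.0547, the unadjusted p of Jun in muscle. The background moved far more. Over all genes the count called was 9 in muscle and 3 in bone. With a Bonferroni p it was 4 and 1, and with an unadjusted p 1543 and 3474. In bone it was 2751 at an FDR under 0.1 and 10 when only genes with a mean reaching 50 were kept. An adjusted p is never below the unadjusted p, and no member had an unadjusted p under 0.05, in either tissue or between them. The counts of 0 at an adjusted or Bonferroni p under 0.05, with or without the mean limit, were therefore fixed in advance. They are not separate checks of the result. No paired analysis was possible because the library columns carry no replicate number or group. For the same reason leaving out each replicate, DESeq2 and edgeR were not run. Precision is limited most in bone, where the median standard error of the members was 1.09 on the log2 scale.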
